A study of Mus musculus with 36 samples.

Results

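Tumour-associated macrophages (TAMs) of mice without B cells were compared with TAMs of wild-type (WT) mice across all genes. The libraries were chosen by their labelled cell type, genotype and treatment: the 6 TAM libraries of *muMt*-/- mice without a GABA pellet and the 6 TAM libraries of WT mice, which are 12 of the 36 libraries of the series. The study asked how B cells shape immune cells of a tumour. It grew MC38, a mouse colon adenocarcinoma line, intradermally in the flank, sorted immune cells from the tumours on day 7 and sequenced the RNA of 100 cells per mouse with a barcode on every molecule, which keeps amplified copies from being counted. The gate for TAMs took CD45.2+, CD11b+ and F4/80 hi cells, and each mouse gave 1 library.

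The *muMt*-/- mice were on the C57BL/6J background. They carry a germline mutation in the gene of the IgM heavy chain (*Ighm*) that stops B cell development, so mature B cells and their antibodies were missing throughout life and not just during tumour growth, while T cells and myeloid cells remain. The WT mice were C57BL/6J or C57BL/6N. The methods describe mice of both sexes, 2 to 5 months old, littermates or matched for age and sex, and give neither sex nor age for a single library. In both groups a placebo pellet was placed under the skin 1 day before the tumour cells, according to the methods, whereas the labels name no treatment. *Ighm* was not analysed here, so the genotype was not checked on it. Which of the 2 C57BL/6 substrains a WT mouse had is not given per mouse, so that substrain and genotype cannot be told apart.

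TAMs arise largely from blood monocytes that enter the tumour through the chemokine receptor CCR2, mature under colony-stimulating factors and take up dead cells, lipids and matrix. Interleukin-4, interleukin-13 and other signals drive macrophages into an alternatively activated state, known for lectins, scavenger receptors and tissue-repair factors, whereas interferons and microbial products favour antigen presentation, nitric oxide and inflammatory cytokines. B cells can act on macrophages through antibodies and Fc receptors, complement and secreted mediators.

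Depth differed between the groups. WT libraries held 206394 to 304100 molecules and *muMt*-/- libraries 100254 to 253608, a difference of means of -80133 molecules (two-sided exact permutation test, p = 0.0260, 6 mice against 6). From 10151 to 10895 genes were detected in WT mice and from 8821 to 10734 in *muMt*-/- mice. Depth was lower in most *muMt*-/- libraries, and the ranges of both quantities overlapped. Levels below are in normalized molecules, which are counts divided by the size factor of the library, and are given as the lowest, highest and median of 6 libraries. The log2 fold change of *muMt*-/- over WT mice is written log2FC, with its standard error (SE). Genes with an adjusted p under 0.05 in edgeR's quasi-likelihood test over all genes tested are called, and only called genes are said to have risen or fallen. The fit was also run 12 times without 1 library, and a call said to be kept in some of 12 fits refers to these. In libraries of bulk RNA, fewer cells of a type and less RNA per cell cannot be told apart.

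The macrophage label was checked on 15 markers, of which all 15 were detected and 4 were called: *Itgam* rose, and *Lyz2*, *C1qb* and *C1qc*, described below, fell. The sum of the 15 ranged from 2299.8 to 2974 in WT (median 2642) and 2048 to 2466 in *muMt*-/- mice (median 2257). The receptor for colony-stimulating factor 1, *Csf1r*, ranged from 130.5 to 168 in WT (median 154) and 92 to 175 in *muMt*-/- (median 144) and was not called (log2FC -0.16, SE 0.17, adjusted p = 0.731). The F4/80 gene *Adgre1* was not called either (log2FC -0.05, adjusted p = 0.943). The pan-leukocyte gene *Ptprc*, whose protein CD45 was used in the sort, was not called (log2FC 0.17, adjusted p = 0.658).

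*Itgam*, which encodes CD11b, the other sort marker, rose. It ranged from 73.3 to 145 in WT (median 92.9) and 133 to 197 in *muMt*-/- (median 153) (log2FC 0.66, SE 0.17, adjusted p = 0.0277). Of the 6 *muMt*-/- libraries, 4 lay above all WT libraries, and the call was kept in 6 of 12 fits (adjusted p up to 0.0907, without WT replicate 1).

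Markers of B cells and plasma cells were close to absent in both groups, as 7 of 13 (*Cd79a*, *Ms4a1*, *Pax5*, *Fcmr*, *Blk*, *Jchain* and *Mzb1*) had 0 molecules in all 12 libraries. Their sum ranged from 2.56 to 7.89 in WT (median 4.06) and 3.69 to 11.3 in *muMt*-/- mice (median 6.87), most of it *Sdc1*, a syndecan that is not particular to plasma cells. The sum of T and NK cell markers, of which the table held 21 of 24, ranged from 17.1 to 36.3 in WT (median 28.7) and 11.3 to 53 in *muMt*-/- mice (median 37.8), with *Il7r* as the most abundant and *Ncr1* and *Prf1* at 0. Dendritic cell markers summed to values from 65.5 to 83.5 in WT (median 75.5) and 46.6 to 81.1 in *muMt*-/- mice (median 71.6), most of which was *Bst2*, with *Zbtb46* and *Cd209a* at 0. The ranges of these sums overlapped between the groups. Eosinophil and mast cell markers reached at most 1.58 in a WT library and 0 in *muMt*-/- libraries, with 11 of 15 at 0 in all 12, and erythroid and platelet markers at most 3.69, with 6 of 10 at 0.

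Markers of stromal cells were high in a few libraries. The 15 fibroblast markers summed to 1139 normalized molecules in WT replicate 6 and to 459 in *muMt*-/- replicate 3, whereas the medians were 121 in WT mice and 151 in *muMt*-/- mice. In *muMt*-/- replicates 4 and 5 they summed to 282 and 244, also above the other 5 WT libraries, which reached at most 171. The collagen gene *Col3a1* was the most abundant of them and ranged from 13.8 to 307 in WT (median 56.8) and 6.22 to 140.1 in *muMt*-/- (median 57.7) (log2FC -0.43, SE 0.48, adjusted p = 0.753, not called). The 12 endothelial markers summed to 90.4 in WT replicate 1 and to at most 8.37 in *muMt*-/- mice. In WT replicate 1 the endothelial genes *Cdh5* and *Plvap* each stood at 18.8 and the adhesion receptor *Pecam1*, the most abundant of the list over the 12 libraries, at 17.9. When WT replicate 6 and *muMt*-/- replicate 3 were left out, a choice made after seeing the data, 116 genes were called, 108 of them among the calls with all libraries, and without WT replicate 1 as well it was 44 genes, 43 of them shared. These fits hold fewer libraries, and the part of stromal RNA in the calls was not tested.

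Neutrophil markers had a higher median sum in *muMt*-/- mice, while edgeR called 0 of the 7 tested. Their sum over 15 genes ranged from 9.38 to 43.3 in WT (median 14) and 18.8 to 42.4 in *muMt*-/- mice (median 31.8), with *Csf3r*, the receptor for granulocyte colony-stimulating factor, as the most abundant and *Retnlg*, *Ngp*, *Camp* and *Ltf* at 0. *Csf3r* itself ranged from 2.37 to 7.99 in WT (median 4.85) and 3.77 to 20.9 in *muMt*-/- (median 8.39) and was not called (log2FC 0.92, SE 0.37, adjusted p = 0.220). WT replicate 5 reached the highest sum of all 12 libraries, so the groups overlapped. The part of neutrophil RNA in the results below was not tested. Of 15 epithelial markers, a list meant for tumour cells, 10 were at 0 in all 12 libraries, *Epcam*, *Krt18* and *Krt19* included. Levels of these markers in MC38 cells were not examined, so the list cannot show whether tumour cells were present. The sum of these markers ranged from 7.26 to 9.47 in WT (median 8.97) and 12.4 to 33.5 in *muMt*-/- mice (median 16.5). Nearly all of it was *Cdh1*, the gene of E-cadherin, which rose from between 6.54 and 9.47 normalized molecules in WT mice to between 11.2 and 33.5 in *muMt*-/- mice (log2FC 1.11, SE 0.28, adjusted p = 0.0287). All 6 *muMt*-/- libraries lay above all 6 WT libraries in *Cdh1*, and the call was kept in 7 of 12 fits (adjusted p up to 0.143, without *muMt*-/- replicate 4). Which cells the *Cdh1* molecules came from was not tested.

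Sex-linked genes had the pattern of male cells in all 12 libraries. Transcripts of *Xist*, expressed from the inactive X chromosome of female cells, were at 0 in all 12 libraries, and the Y-linked helicase gene *Ddx3y* ranged from 8.53 to 24.7 in WT (median 16.8) and 10.9 to 29.3 in *muMt*-/- (median 16.9) (log2FC 0.17, SE 0.26, adjusted p = 0.844, not called). Among the 4 tested sex-linked genes (median log2FC 0.20), edgeR called 0, also at an unadjusted p under 0.05, and DESeq2's Wald test 0.

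Of 9469 genes tested, 194 (2.05%) were called, 97 higher (1.02%) and 97 lower (1.02%). The median log2FC of all genes tested was -0.05, with 4384 above 0 and 5085 below 0, and this median is the background for the gene lists. All 6 *muMt*-/- libraries lay above all 6 WT libraries for 109 genes (1.15%) and below them for 126 (1.33%). Among the called genes, 57 of the 97 that rose and 67 of the 97 that fell had groups that did not overlap. Rises ranged from 0.54 to 5.04 on the log2 scale with a median of 0.96, and the median of the falls was -0.92. Among the 97 genes that fell, 31 encode cytosolic ribosomal proteins and 9 subunits of oxidative phosphorylation (OXPHOS), and the other 57 belong to neither group. Of the genes that rose, 0 encode either (edgeR, adjusted p under 0.05). For each gene list below, the counts called by edgeR are followed by the median log2FC (median), by the numbers higher and lower at an unadjusted p below 0.05 in edgeR (unadjusted) and by those called higher and lower by DESeq2's Wald test (DESeq2). Over all genes, 636 (6.72%) and 772 (8.15%) passed the unadjusted p. DESeq2 called 134 (2.55%) and 119 (2.27%) of the 5245 genes to which it gave an adjusted p.

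**Figure D1:**
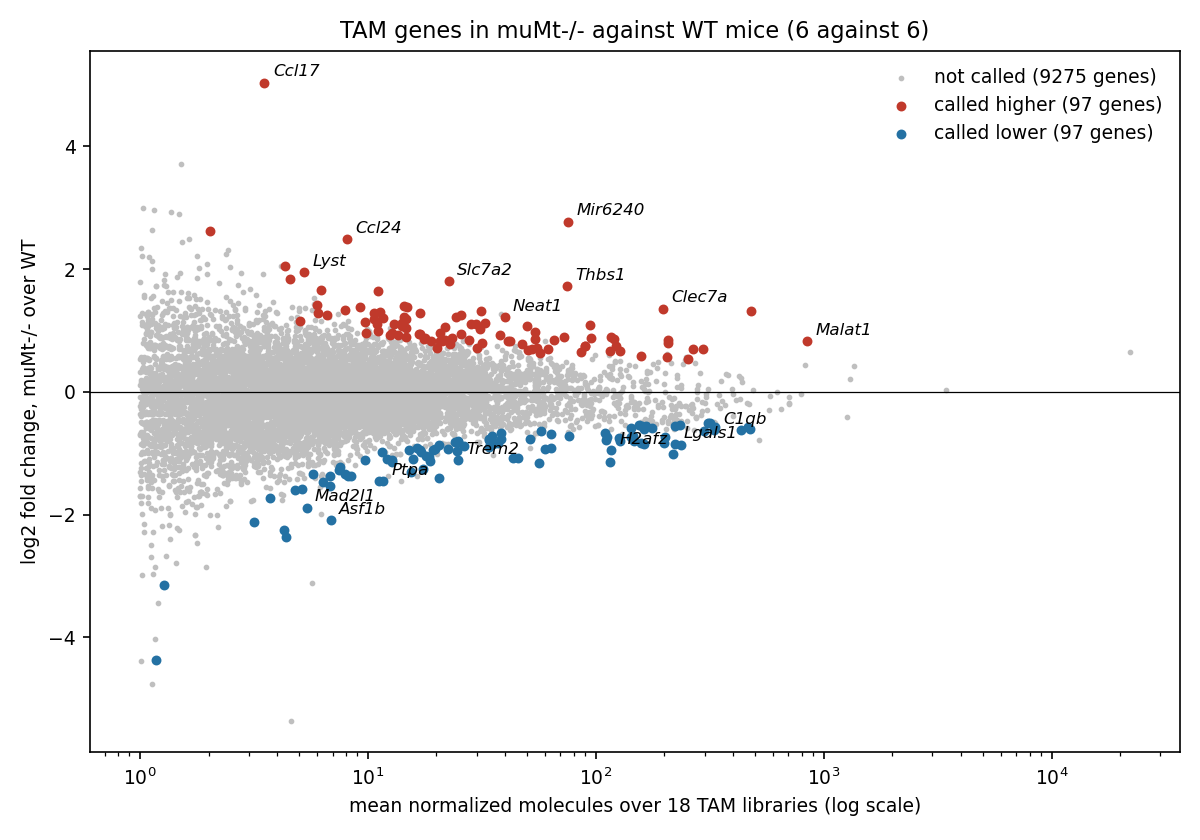
Log2 fold change of *muMt*-/- over WT mice for each of the 9469 genes tested in TAMs (vertical axis) against the mean of normalized molecules over the 18 TAM libraries (horizontal axis, log scale). The 97 genes called higher (red) include *Mir6240*, *Slc7a2* and *Clec7a*, the 97 called lower (blue) include *Asf1b*, *Trem2* and *H2afz*, and grey points are genes that were not called.

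Calls depended on single libraries. Of the 84 called genes that the naming rule takes, 31 kept the call in all 12 fits without 1 library. The fit without *muMt*-/- replicate 4 ended the call of 50 of them, that without WT replicate 1 of 43 and that without WT replicate 6 of 29. Over all genes, the fits without these libraries called 69, 86 and 119 genes. Of the 84, a robust fit ended the calls of *6330407A03Rik*, *Ccl17*, *Ccl24*, *Cxcl3*, *Plac8* and *Ptgs2* (adjusted p from 0.0648 to 0.227), and DESeq2's Wald test those of *6330407A03Rik* and *Glrx5* (0.0683 and 0.0566), and it gave no adjusted p to *Ccl17*, *Cxcl3* and *Pdcd1lg2*. With the log2 depth of the library as a covariate, 10 of the 194 genes were still called, among them *Slc7a2*, *Clec7a*, *Mir6240*, *Neat1*, *Anpep*, *Mcemp1* and *Bhlhe40*, which rose, and *Asf1b* and *BC018473*, which fell. All 194 kept their direction in that fit. The log2FC was smaller in size there for 150 of the 194 and over 1.5 times smaller for 33, among them 9 of the 84, whose covariate log2FC and adjusted p follow their test. For 1 gene, *BC018473*, it was over 1.5 times larger. Depth and genotype move together in these libraries, and the part of depth in the other calls was not tested beyond this fit and one with all libraries thinned to 100254 molecules, which called 116 genes, 95 of them among the 194. Thinning ended the call of 37 of the 84. Leaving out the 2 libraries highest in fibroblast markers ended the call of 35, and leaving out WT replicate 1 as well that of 60.

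Among genes of arginine uptake and metabolism, a carrier rose. *Slc7a2* (chr8:40862341-40922070), which carries arginine and other cationic amino acids into macrophages, ranged from 3.69 to 15.3 in WT (median 9.82) and 13.8 to 46 in *muMt*-/- (median 39.8). It rose (log2FC 1.80, SE 0.26, adjusted p = 8.60e-05), and with the covariate the log2FC was 1.79 with an adjusted p = 0.00409. The lowest *muMt*-/- library lay within the WT range and the other 5 lay above it. *Oaz1*, the antizyme that sends ornithine decarboxylase to the proteasome, fell from values of 85 to 104 in WT mice to 39 to 71 in *muMt*-/- mice (log2FC -0.72, SE 0.20, adjusted p = 0.0373, with the covariate -0.41 and 0.631). The groups did not overlap, with the call kept in 3 of 12 fits (adjusted p up to 0.122, without *muMt*-/- replicate 4). In the list of arginine uptake and metabolism, 1 rose and 1 fell of 20 tested (median -0.30, unadjusted 2 and 3, DESeq2 1 and 1). Its most abundant gene, *Gatm*, which uses arginine in the first step of creatine synthesis, ranged from 107 to 155 in WT (median 126) and 129 to 188 in *muMt*-/- (median 150.2) and was not called (log2FC 0.25, SE 0.15, adjusted p = 0.428). *Nos2*, the inducible nitric oxide synthase that competes for arginine, was looked up after its values were seen. It ranged from 8.30 to 40.8 in WT (median 18.7) and 18.1 to 60.6 in *muMt*-/- (median 40.6) and was not called (log2FC 0.78, SE 0.30, adjusted p = 0.178).

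Among genes of alternative activation and scavenger receptors, 5 rose and 0 fell of 31 tested (median 0.45, unadjusted 14 and 2, DESeq2 6 and 0). Over all genes tested, 1.02% were called in each direction and the median was -0.05. When only genes with a mean above 5 were tested, 140 of 5310 were called higher. No background matched to the list in level was used. In every *muMt*-/- library the sum of the list exceeded all WT sums. The genes that rose were *Klf4*, *Ccl17*, *Pdcd1lg2*, *Il4ra* and *Ccl24*. With 1 molecule over the WT libraries, *Ccl17* passed the filter of a mean above 1 only through the other TAM libraries. *Il4ra*, the receptor chain that binds interleukin-4 and interleukin-13, ranged from 37 to 64.6 in WT (median 42.8) and 59 to 90.4 in *muMt*-/- (median 71.7) (log2FC 0.63, SE 0.17, adjusted p = 0.0343). Of the *muMt*-/- libraries, 5 lay above the WT range, and the call was kept in 4 of 12 fits (adjusted p up to 0.0848, without WT replicate 4). *Pdcd1lg2*, which encodes the PD-1 ligand PD-L2, ranged from 0.789 to 4.36 in WT (median 1.19) and 4.61 to 12.6 in *muMt*-/- (median 7.50) (log2FC 1.83, SE 0.43, adjusted p = 0.0155). The groups did not overlap, and the call was lost without *muMt*-/- replicate 4 (adjusted p = 0.0674). The gene of the other PD-1 ligand, *Cd274*, chosen after its values were seen, ranged from 32.7 to 65.9 in WT (median 45) and 76 to 101 in *muMt*-/- (median 83.6) and rose too (log2FC 0.84, SE 0.16, adjusted p = 0.00349), with all 6 *muMt*-/- libraries above the WT range. The mannose receptor *Mrc1*, also looked up afterwards, ranged from 16.9 to 34.2 in WT (median 21.9) and 11.2 to 191 in *muMt*-/- (median 40.2) and was not called (log2FC 1.27, SE 0.38, adjusted p = 0.0682), with a log2FC of 0.50 (adjusted p = 0.562) without *muMt*-/- replicate 4, the highest, and of 0.83 with the covariate. It passed the threshold without *muMt*-/- replicate 2 or 3. Transglutaminase 2 (*Tgm2*), a cross-linking enzyme and the most abundant of the list, ranged from 177 to 226 in WT (median 209) and 220.3 to 393 in *muMt*-/- (median 299.6) and missed the threshold (log2FC 0.56, SE 0.17, adjusted p = 0.0720). *Tgm2* passed it in the robust fit (adjusted p = 0.0371) and in DESeq2's Wald test (0.0236), and in none of the fits without 1 library.

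**Figure D2:**
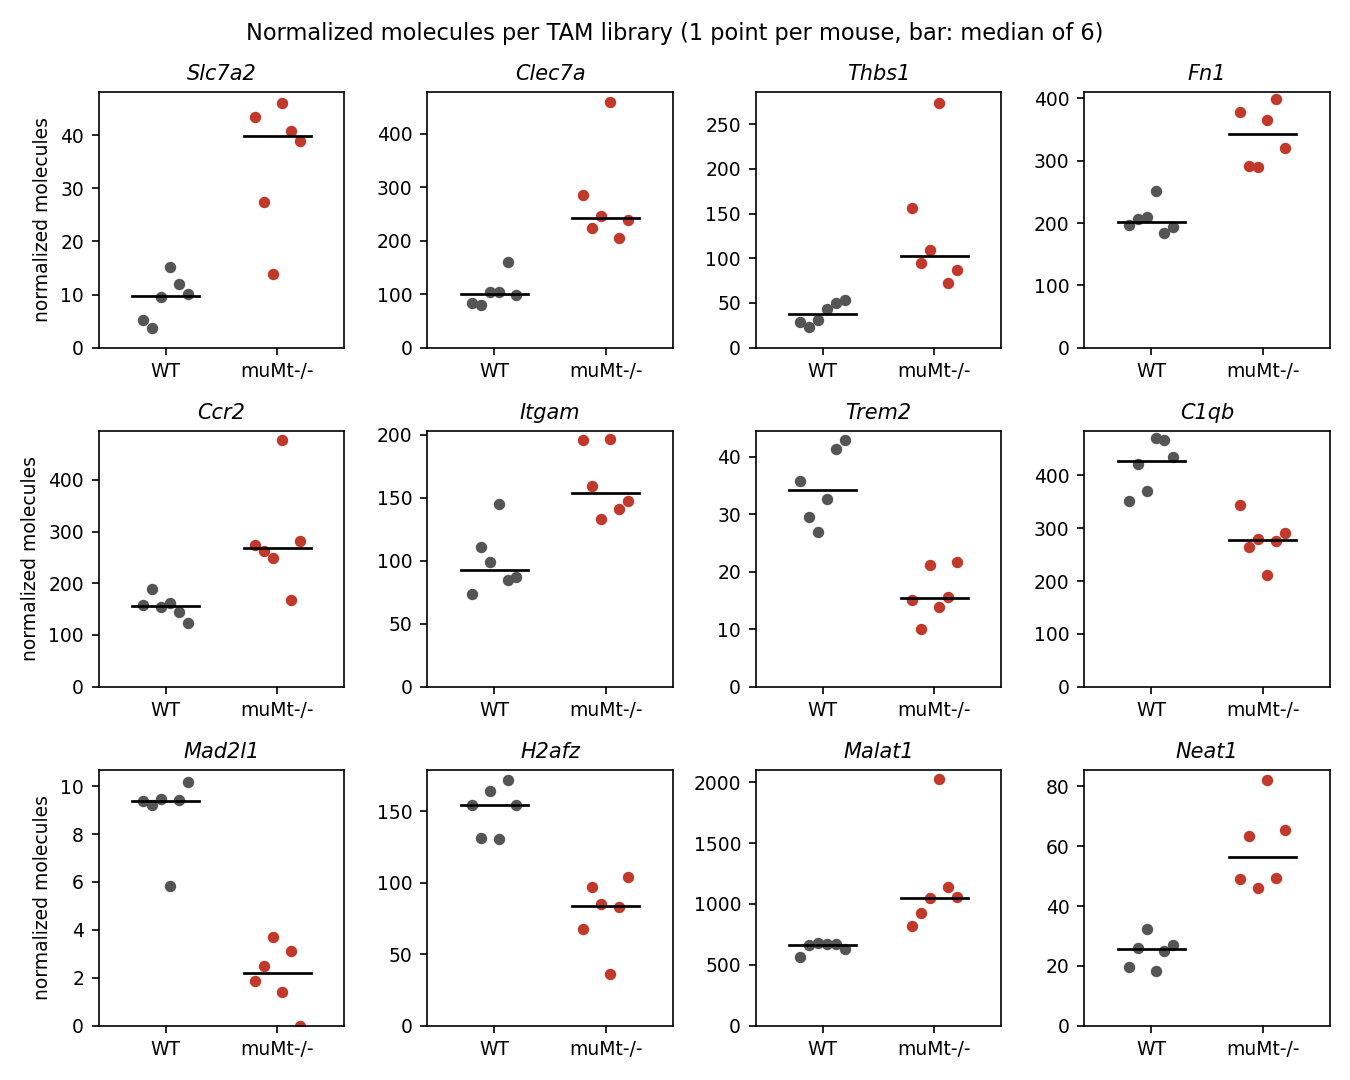
Normalized molecules of 12 genes in each TAM library of WT (grey) and *muMt*-/- (red) mice, 6 mice per group, with a bar at the median. *Clec7a* reached 204 to 459 in *muMt*-/- and 79.4 to 159 in WT mice, and in *Mad2l1*, *H2afz*, *Trem2* and *C1qb* all *muMt*-/- libraries lay below all WT libraries.

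*Clec7a* (chr6:129461591-129472785), which encodes dectin-1, a receptor for fungal and other β-glucans, rose strongly among the lectins. It ranged from 79.4 to 159 in WT (median 101) and 204 to 459 in *muMt*-/- (median 243) (log2FC 1.35, SE 0.21, adjusted p = 1.50e-04). The groups did not overlap, *muMt*-/- replicate 4 was the highest library, and the gene was called in all 12 fits and with the covariate (log2FC 1.19, adjusted p = 0.0404). Among the myeloid C-type lectins, 1 rose and 0 fell of 19 tested (median 0.29, unadjusted 6 and 2, DESeq2 1 and 0).

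Matrix proteins and their receptors made up another part of the rises. *Thbs1* (chr2:118111876-118127133), an adhesive glycoprotein that activates TGF-β and restrains new vessels, ranged from 23.1 to 53.7 in WT (median 37.2) and 72.1 to 273 in *muMt*-/- (median 102) (log2FC 1.72, SE 0.27, adjusted p = 3.67e-04). Every *muMt*-/- library lay above the WT range, and the gene was called in all 12 fits, with an adjusted p of up to 0.00385. *Fn1*, fibronectin, ranged from 185 to 251 in WT (median 201) and 289 to 399 in *muMt*-/- (median 343) and rose (log2FC 0.69, SE 0.14, adjusted p = 0.00527). These groups did not overlap either. *Sdc4*, a heparan sulfate proteoglycan that binds fibronectin, ranged from 23.2 to 41.5 in WT (median 27.3) and 45.1 to 78.1 in *muMt*-/- (median 46.6) (log2FC 0.82, SE 0.19, adjusted p = 0.0122). Its groups were separate, and its call was lost without *muMt*-/- replicate 4 (adjusted p = 0.0651). *F10*, coagulation factor X, ranged from 2.56 to 17.6 in WT (median 6.33) and 14.9 to 32.6 in *muMt*-/- (median 21.3) (log2FC 1.39, SE 0.32, adjusted p = 0.0127). Of the *muMt*-/- libraries, 4 lay above all WT libraries. The metalloproteinase *Mmp19* ranged from 6.54 to 17.6 in WT (median 7.33) and 9.42 to 43.2 in *muMt*-/- (median 16.6) (log2FC 1.19, SE 0.29, adjusted p = 0.0206), with 2 *muMt*-/- libraries above the WT range and a call kept in 8 of 12 fits (adjusted p up to 0.121, without *muMt*-/- replicate 4).

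*Lgals1*, galectin-1, a galactoside-binding protein secreted by many cells, went the other way. It ranged from 245 to 319 in WT (median 274) and 114 to 217 in *muMt*-/- (median 156) and fell (log2FC -0.85, SE 0.17, adjusted p = 0.00351). Its groups did not overlap. Over the list of matrix, adhesion and angiogenic factors, 5 rose and 1 fell of 49 tested (median 0.02, unadjusted 11 and 3, DESeq2 6 and 1). This list shares members with the fibroblast markers, such as *Col1a1* and *Col3a1*, and its sum was highest in WT replicate 6. Without WT replicate 6 and *muMt*-/- replicate 3 its median was 0.19. Among integrins and adhesion receptors, 1 rose and 0 fell of 30 tested (median 0.02, unadjusted 4 and 2, DESeq2 2 and 0), the rise being *Itgam*.

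Several monocyte genes rose. *Ccr2*, the receptor through which monocytes leave the marrow and enter tumours, ranged from 123 to 188 in WT (median 156) and 168 to 477 in *muMt*-/- (median 268) and rose (log2FC 0.84, SE 0.19, adjusted p = 0.0106, with the covariate 0.41 and 0.579). *muMt*-/- replicate 4 was far above the rest, 5 of the 6 *muMt*-/- libraries exceeded the WT range, and the call was lost without *muMt*-/- replicate 4 (adjusted p = 0.0674). *Plac8*, a small protein of monocytes and neutrophils, ranged from 40.1 to 116 in WT (median 68.7) and 54 to 211 in *muMt*-/- (median 152) (log2FC 0.90, SE 0.25, adjusted p = 0.0485). The groups overlapped, and the call was kept in 3 of 12 fits (adjusted p up to 0.145, without WT replicate 1). *Gsr*, glutathione reductase, which keeps glutathione reduced, ranged from 2.77 to 8.68 in WT (median 6.62) and 10.9 to 18.7 in *muMt*-/- (median 12.9) (log2FC 1.11, SE 0.30, adjusted p = 0.0372). Here the groups were separate, and the call was kept in 4 of 12 fits (adjusted p up to 0.104, without *muMt*-/- replicate 2). *Lyz2*, lysozyme, a gene of monocytes and macrophages alike, ranged from 112 to 190.2 in WT (median 153) and 67.8 to 121 in *muMt*-/- (median 92.3) and fell (log2FC -0.74, SE 0.19, adjusted p = 0.0240). Of the *muMt*-/- libraries, 5 lay below the WT range, and the call was kept in 8 of 12 fits (adjusted p up to 0.0778, without *muMt*-/- replicate 4).

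Over the monocyte list, 5 rose and 1 fell of 39 tested (median 0.37, unadjusted 14 and 2, DESeq2 5 and 1), with *Thbs1* and *Fn1* among the rises. The Ly6C gene *Ly6c2*, looked up after its values were seen, ranged from 37.8 to 92.3 in WT (median 50.1) and 36.8 to 131 in *muMt*-/- (median 79.3) and was not called (log2FC 0.38, SE 0.30, adjusted p = 0.610). Its *muMt*-/- values spread to both sides of the WT range. The list shares *S100a8*, *S100a9* and *Csf3r* with the neutrophil markers, whose sums are given above and whose part in this list was not tested.

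Among chemokine receptors, 1 rose and 0 fell of 11 tested (median 0.54, unadjusted 5 and 1, DESeq2 3 and 0), led by *Ccr2*. Each *muMt*-/- sum of the list exceeded all WT sums. *Ccr1*, a receptor for CCL3 and CCL5 looked up after its values were seen, ranged from 65.7 to 89.1 in WT (median 78.1) and 103 to 129 in *muMt*-/- (median 114). It lay at the threshold (log2FC 0.54, SE 0.15, adjusted p = 0.0510) and was not called, although its groups did not overlap. *Ccr1* passed in the robust fit (adjusted p = 0.0342) and in DESeq2's Wald test (0.00619), and not with the covariate (0.270). Of the fits without 1 library, it passed only in that without WT replicate 5 (0.0475). The fractalkine receptor *Cx3cr1*, which is high in patrolling monocytes and resident macrophages, was looked up in the same way, ranged from 26.9 to 49.8 in WT (median 41.2) and 13.9 to 43.3 in *muMt*-/- (median 18.3) and was not called (log2FC -0.82, SE 0.26, adjusted p = 0.0883).

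The CC chemokines that rose stood at low levels in WT mice. *Ccl17*, a ligand of CCR4 that macrophages make under interleukin-4, had 1 molecule in the 6 WT libraries and 40 in the 6 *muMt*-/- libraries, a ratio of 62.2 after scaling by depth, with a 95% counting interval from 10.5 to 2519. Of the 40, 25 stood in *muMt*-/- replicate 4, without which the ratio was 27.2 (interval 4.18 to 1145, a choice made after seeing the data). Both intervals pool the molecules of a group and cover counting error alone, not the spread between mice. *Ccl17* ranged from 0 to 0.923 in WT (median 0) and 0 to 34.9 in *muMt*-/- (median 4.17), with *muMt*-/- replicates 1 and 6 at 0 (adjusted p = 0.00659). The call was lost without *muMt*-/- replicate 4 (adjusted p = 0.0866). *Ccl24*, an eotaxin that binds CCR3, ranged from 0 to 5.02 in WT (median 0.821) and 3.69 to 20.7 in *muMt*-/- (median 11) (log2FC 2.49, SE 0.67, adjusted p = 0.0363). Of the *muMt*-/- libraries, 4 lay above the WT range, and the call was kept in 3 of 12 fits (adjusted p up to 0.0933, without *muMt*-/- replicate 1). Among the CC chemokines, 2 rose and 0 fell of 11 tested (median 0.10, unadjusted 4 and 3, DESeq2 1 and 0). Of these 2 rises, *Ccl17* entered the test only through TAM libraries other than those of WT mice. The most abundant CC chemokine, *Ccl2*, was not called (log2FC -0.54, adjusted p = 0.190).

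Of the CXC chemokines, the neutrophil attractants *Cxcl2* and *Cxcl3*, which bind CXCR2, rose. *Cxcl2* ranged from 58 to 129 in WT (median 88) and 119 to 216 in *muMt*-/- (median 186) (log2FC 0.87, SE 0.20, adjusted p = 0.0123). In all but 1 *muMt*-/- library it was above the WT range, and the call was lost without WT replicate 1 (adjusted p = 0.0531). *Cxcl3* ranged from 0 to 5.81 in WT (median 0.727) and 1.88 to 12.4 in *muMt*-/- (median 9.25) (log2FC 2.05, SE 0.57, adjusted p = 0.0454), and its call was kept in 3 of 12 fits (adjusted p up to 0.122, without *muMt*-/- replicate 2). Over the list, 2 rose and 0 fell of 10 tested (median -0.03, unadjusted 2 and 2, DESeq2 1 and 0).

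Genes of macrophage identity moved in both directions. In this list, 5 rose and 3 fell of 35 tested (median -0.01, unadjusted 13 and 7, DESeq2 9 and 3). *Zeb2*, a repressor that maintains macrophage identity, ranged from 49.7 to 78.5 in WT (median 60.7) and 96.3 to 255 in *muMt*-/- (median 115) and rose (log2FC 1.09, SE 0.21, adjusted p = 0.00349). *Klf4*, a factor of monocyte differentiation and of the interleukin-4 response, ranged from 26 to 35.6 in WT (median 31.7) and 31.1 to 112 in *muMt*-/- (median 57.8) (log2FC 1.08, SE 0.21, adjusted p = 0.00349). *Bhlhe40*, a repressor that supports macrophage proliferation and limits interleukin-10, ranged from 5.54 to 8.16 in WT (median 6.96) and 12.4 to 22.6 in *muMt*-/- (median 16.6) (log2FC 1.19, SE 0.25, adjusted p = 0.00597). The groups were separate for *Zeb2* and *Bhlhe40* and overlapped in 1 *muMt*-/- library for *Klf4*, and all 3 genes were called in the 12 fits. With the covariate *Bhlhe40* was still called (log2FC 1.38, adjusted p = 0.0491). *Csf2rb*, the shared chain of the receptors for GM-CSF, interleukin-3 and interleukin-5, ranged from 26 to 61.8 in WT (median 40.3) and 49.7 to 89.3 in *muMt*-/- (median 80.01) (log2FC 0.71, SE 0.19, adjusted p = 0.0318). Its call was kept in 4 of 12 fits (adjusted p up to 0.0993, without WT replicate 3).

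Of the 3 genes of complement C1q, 2 fell. *C1qb* ranged from 352 to 471 in WT (median 428) and 212 to 343 in *muMt*-/- (median 278) (log2FC -0.62, SE 0.17, adjusted p = 0.0414). *C1qc* ranged from 328 to 466 in WT (median 408) and 202 to 319 in *muMt*-/- (median 286) (log2FC -0.57, SE 0.16, adjusted p = 0.0483, with the covariate -0.36 and 0.610). In both, all 6 *muMt*-/- libraries lay below all 6 WT libraries, yet the adjusted p lay near the threshold: the call of *C1qb* was kept in 1 of 12 fits (adjusted p up to 0.123, without *muMt*-/- replicate 4), and that of *C1qc* was kept in 1 of 12 fits (adjusted p up to 0.143, without *muMt*-/- replicate 4). The third chain, *C1qa*, was looked up after its values were seen, ranged from 275 to 399.8 in WT (median 345) and 266 to 307 in *muMt*-/- (median 276) and was not called (log2FC -0.30, SE 0.13, adjusted p = 0.278). Among complement components and receptors, 1 rose and 2 fell of 17 tested (median 0.16, unadjusted 3 and 3, DESeq2 2 and 2), the rise being *Itgam*, a chain of complement receptor 3.

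*Trem2* (chr17:48346401-48352276), a receptor for lipids and dead cells that marks lipid-laden macrophages, fell. It ranged from 26.8 to 42.9 in WT (median 34.3) and 9.95 to 21.8 in *muMt*-/- (median 15.4) (log2FC -1.11, SE 0.24, adjusted p = 0.00828, with the covariate -0.71 and 0.426). Every *muMt*-/- library lay below the WT range, and the gene was called in all 12 fits. It was the sole call in 2 lists: among lipid-handling genes, 0 rose and 1 fell of 36 tested (median -0.10, unadjusted 2 and 7, DESeq2 0 and 1), and among genes of phagocytosis and clearance of dead cells, 0 rose and 1 fell of 30 tested (median 0.10, unadjusted 5 and 4, DESeq2 2 and 1). The most abundant lipid-handling gene, *Apoe*, which encodes the lipid carrier apolipoprotein E, ranged from 335 to 701 in WT (median 424) and 316 to 531 in *muMt*-/- (median 329) and was not called (log2FC -0.40, SE 0.18, adjusted p = 0.286). Among Fcγ receptors and their signalling partners, 0 rose and 1 fell of 11 tested (median -0.11, unadjusted 2 and 2, DESeq2 1 and 1). The gene that fell was *Fcrls*, an Fc receptor-like scavenger receptor, which ranged from 13.8 to 38.8 in WT (median 21.5) and 6.22 to 20.7 in *muMt*-/- (median 11.1) (log2FC -1.05, SE 0.28, adjusted p = 0.0360). Its call was kept in 5 of 12 fits (adjusted p up to 0.108, without *muMt*-/- replicate 2).

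Several immediate early genes and feedback regulators of MAP kinases rose. Over this list, 5 rose and 0 fell of 37 tested (median 0.36, unadjusted 17 and 0, DESeq2 10 and 0), and 28 were above 0. No *muMt*-/- sum of the list overlapped the WT range. *Nr4a2*, a nuclear receptor induced within an hour of stimulation, ranged from 4.36 to 12 in WT (median 8.66) and 9.40 to 32 in *muMt*-/- (median 20.7) (log2FC 1.13, SE 0.29, adjusted p = 0.0286, with the covariate 0.49 and 0.710). *Dusp1*, a phosphatase that switches off p38 and JNK, ranged from 128 to 189 in WT (median 168) and 188 to 337 in *muMt*-/- (median 251) (log2FC 0.57, SE 0.15, adjusted p = 0.0317). *Gadd45b*, a stress-induced activator of the p38 pathway, ranged from 3.77 to 8.30 in WT (median 7.36) and 9.32 to 26.5 in *muMt*-/- (median 12.1) (log2FC 1.14, SE 0.30, adjusted p = 0.0317, with the covariate 0.66 and 0.600). The groups were separate for *Gadd45b* and overlapped in 1 *muMt*-/- library for *Nr4a2* and *Dusp1*. *Btg1*, an antiproliferative cofactor, ranged from 184 to 259.9 in WT (median 201) and 272 to 345 in *muMt*-/- (median 311) (log2FC 0.54, SE 0.14, adjusted p = 0.0317), with separate groups. These calls were kept in 5 (*Nr4a2*), 5 (*Dusp1*), 7 (*Gadd45b*) and 3 (*Btg1*) of the 12 fits without 1 library, with the highest adjusted p, 0.157, for *Gadd45b* without *muMt*-/- replicate 4. The most abundant gene, *Fos*, was not called (log2FC 0.47, adjusted p = 0.0873), although it passed in DESeq2's Wald test (adjusted p = 0.0215).

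Smaller numbers of calls stood in the lists of signalling. Among NF-κB subunits and inhibitors, 1 rose and 0 fell of 29 tested (median 0.27, unadjusted 4 and 1, DESeq2 2 and 0). The rise was *Nfkbie*, an inhibitor that holds NF-κB in the cytoplasm, which ranged from 4.36 to 11.8 in WT (median 6.83) and 9.32 to 19.5 in *muMt*-/- (median 14.5) (log2FC 0.96, SE 0.26, adjusted p = 0.0380). Its call was kept in 3 of 12 fits (adjusted p up to 0.127, without *muMt*-/- replicate 4). Among genes of TGF-β signalling, 2 rose and 0 fell of 28 tested (median -0.01, unadjusted 4 and 1, DESeq2 2 and 0). *Skil*, a repressor of SMAD-driven transcription, ranged from 29 to 45.1 in WT (median 41.6) and 54.8 to 106 in *muMt*-/- (median 71.1) (log2FC 0.86, SE 0.17, adjusted p = 0.00362). Its groups did not overlap, and it was called in all 12 fits. *Inhba*, whose product forms activin A, ranged from 7.38 to 36.4 in WT (median 18.7) and 28.6 to 59.97 in *muMt*-/- (median 39.8) (log2FC 1.03, SE 0.24, adjusted p = 0.0153). Its call was lost without *muMt*-/- replicate 4 (adjusted p = 0.0666). Over cytokines, growth factors and their receptors, 3 rose and 0 fell of 43 tested (median 0.25, unadjusted 10 and 3, DESeq2 3 and 0), the rises being *Inhba*, *Csf2rb* and *Il4ra*. *Tnf*, which the naming rule does not take, ranged from 3.16 to 19.6 in WT (median 8.26) and 4.61 to 21.2 in *muMt*-/- (median 9.89) and was not called (log2FC -0.05, SE 0.38, adjusted p = 0.978).

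*Bcl2l11*, which encodes the death-promoting BCL2 relative BIM, rose. It ranged from 8.16 to 12.6 in WT (median 10.1) and 17.1 to 35.8 in *muMt*-/- (median 25.8) (log2FC 1.29, SE 0.22, adjusted p = 0.00169). The groups were separate, and the gene was called in all 12 fits. Among the BCL2 family and other genes of cell death, 1 rose and 0 fell of 31 tested (median 0.20, unadjusted 6 and 1, DESeq2 2 and 0). *Ptgs2*, cyclooxygenase-2, the inducible enzyme of prostaglandin synthesis, ranged from 29.8 to 78.5 in WT (median 52.6) and 71.3 to 149 in *muMt*-/- (median 88.5) and rose (log2FC 0.90, SE 0.22, adjusted p = 0.0218). Its call was lost without WT replicate 1, WT replicate 3 or *muMt*-/- replicate 4 (adjusted p up to 0.0906, without *muMt*-/- replicate 4). Among genes of prostaglandins and leukotrienes, 1 rose and 0 fell of 16 tested (median 0.13, unadjusted 4 and 0, DESeq2 1 and 0). *Hif1a*, the oxygen-regulated transcription factor, ranged from 34.1 to 67.1 in WT (median 46.8) and 53.3 to 112 in *muMt*-/- (median 79.7) (log2FC 0.69, SE 0.18, adjusted p = 0.0343). It was the sole call among genes of glycolysis and hypoxia, where 1 rose and 0 fell of 40 tested (median 0.09, unadjusted 9 and 5, DESeq2 4 and 0), and its call was kept in 4 of 12 fits (adjusted p up to 0.104, without *muMt*-/- replicate 6). Among NADPH oxidase and antioxidant genes, 1 rose and 0 fell of 32 tested (median 0.10, unadjusted 3 and 2, DESeq2 1 and 1), the rise being *Gsr*.

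*Gvin1*, a very large GTPase induced by interferon, rose among the interferon-inducible GTPases, where 1 rose and 0 fell of 21 tested (median 0.11, unadjusted 2 and 0, DESeq2 1 and 0). It ranged from 59.2 to 78.4 in WT (median 67.9) and 98 to 129 in *muMt*-/- (median 122) (log2FC 0.75, SE 0.14, adjusted p = 0.00349). The groups did not overlap. *Gm4070*, annotated beside it, carried nearly the same counts, with 0.120% of molecules differing, so that molecules of the pair cannot be told apart and both are uncertain. Of the type I interferon-stimulated genes, edgeR called 0 (55 tested, unadjusted 3 and 1, DESeq2 0 and 0, median -0.03).

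Most genes of mitosis and DNA replication had a log2FC below 0, while few were called. Of 84 mitosis and kinetochore genes tested, 4 fell and 0 rose, 80 were below 0, and the median log2FC was -0.66 against -0.05 over all genes. At an unadjusted p under 0.05, edgeR gave 34 lower and 0 higher, and DESeq2's Wald test called 4 lower and 0 higher. The sum of the list ranged from 674 to 1024 in WT (median 856) and 448 to 846 in *muMt*-/- mice (median 518). In the highest *muMt*-/- library the sum lay within the WT range, and in the other 5 it lay below. The median lay between -0.89 and -0.58 in the 12 fits without 1 library and at -0.62 with the depth covariate, with which 0 of its genes were called by edgeR.

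*Mad2l1* (chr6:66535221-66541107), a sensor of the spindle checkpoint, ranged from 5.81 to 10.2 in WT (median 9.40) and 0 to 3.69 in *muMt*-/- (median 2.19) and fell (log2FC -1.89, SE 0.41, adjusted p = 0.00828). *Cdca8*, the borealin subunit of the chromosomal passenger complex, ranged from 9.38 to 16.6 in WT (median 12) and 2.79 to 7.47 in *muMt*-/- (median 4.22) and fell (log2FC -1.37, SE 0.30, adjusted p = 0.00828). In both genes all 6 *muMt*-/- libraries lay below all WT libraries. *Ccna2*, the cyclin of S phase and entry into mitosis, ranged from 10.2 to 26 in WT (median 18.5) and 2.79 to 11.3 in *muMt*-/- (median 6.24) (log2FC -1.46, SE 0.31, adjusted p = 0.00632). *Kif20a*, a kinesin of the central spindle, ranged from 5.97 to 12.6 in WT (median 8.71) and 0 to 4.66 in *muMt*-/- (median 3.25) (log2FC -1.59, SE 0.37, adjusted p = 0.0127). The groups of *Kif20a* were separate, the call lost without *muMt*-/- replicate 4 (adjusted p = 0.0536), and 1 *muMt*-/- library overlapped the WT range in *Ccna2*. *Top2a*, the topoisomerase of dividing cells and the most abundant member, ranged from 52 to 85.2 in WT (median 63) and 44.2 to 96.3 in *muMt*-/- (median 51.3) and was not called (log2FC -0.19, SE 0.22, adjusted p = 0.767). Its highest value of all 12 libraries stood in *muMt*-/- replicate 5.

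Among DNA replication genes, 0 rose and 3 fell of 75 tested (median -0.44, unadjusted 0 and 13, DESeq2 0 and 4), and 64 were below 0. *Asf1b*, a chaperone that brings histones H3 and H4 to new DNA, ranged from 8.72 to 18.2 in WT (median 10.2) and 0.783 to 6.22 in *muMt*-/- (median 2.48) and fell (log2FC -2.08, SE 0.38, adjusted p = 0.00211). It was still called with depth as a covariate (log2FC -2.50, adjusted p = 0.0104) and in all 12 fits without 1 library. *Tk1*, thymidine kinase, ranged from 9.23 to 12.4 in WT (median 10.6) and 1.24 to 6.45 in *muMt*-/- (median 4.68) (log2FC -1.36, SE 0.33, adjusted p = 0.0182), the call lost without *muMt*-/- replicate 2 or *muMt*-/- replicate 4 (adjusted p up to 0.0673, without *muMt*-/- replicate 4). *Rrm2*, a subunit of ribonucleotide reductase, ranged from 14.4 to 26.8 in WT (median 18.7) and 4.18 to 17.4 in *muMt*-/- (median 9.37) (log2FC -0.95, SE 0.27, adjusted p = 0.0483), the call kept in 5 of 12 fits (adjusted p up to 0.153, without *muMt*-/- replicate 4). In *Asf1b* and *Tk1* the groups did not overlap, and in *Rrm2* 1 *muMt*-/- library reached the WT range. *Pclaf*, a partner of the replication clamp outside the list, was chosen after its values were seen, ranged from 37.8 to 59.2 in WT (median 46.2) and 19.5 to 32.1 in *muMt*-/- (median 24.3) and fell (log2FC -0.89, SE 0.19, adjusted p = 0.00666). In all 6 *muMt*-/- libraries it was below the WT range. The proliferation gene *Mki67*, looked up likewise, was not called (log2FC -0.37, adjusted p = 0.505).

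Promoters of tested genes were searched on both strands for letters known from cell cycle genes, from 250 bases before to 50 bases after each start. TTTGAA, the letters of the CHR element of genes active in G2 and M phase, stood in 14.3% of 7478 promoters of tested genes, in 46 of 68 mitosis promoters (67.6%) and in 12 of 61 replication promoters (19.7%). CCAAT or ATTGG, the letters of NF-Y sites, stood in 43%, 72.1% and 55.7% of the same promoters. The E2F letters TTTCCCGC or TTTGGCGC stood in 3.81% of all tested promoters, 5.88% of mitosis promoters and 31.1% of replication promoters. The promoters of *Kif20a* and *Ccna2* were not analysed here. Of the other 5 genes that fell in these lists, *Cdca8* and *Asf1b* hold TTTGAA, 3 hold NF-Y letters and 0 hold the E2F letters. Sequences of the first 2 from 130 bases before to 30 after the start show how TTTGAA sits by NF-Y letters, with TTTGAA and ATTGG in capitals, read 5′ to 3′ on the strand of the gene in GRCm38.p6 (RefSeq), chr4:124936888-124937047 on the minus strand for *Cdca8* and chr8:83955564-83955723 on the plus strand for *Asf1b*. The TTTGAA of *Cdca8* overlaps an ATTGG. A match describes letters in a window and is not a measured site.
Cdca8: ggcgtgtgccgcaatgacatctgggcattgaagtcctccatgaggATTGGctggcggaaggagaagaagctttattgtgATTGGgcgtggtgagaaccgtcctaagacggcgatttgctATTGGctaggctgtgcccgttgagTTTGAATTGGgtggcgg
Asf1b: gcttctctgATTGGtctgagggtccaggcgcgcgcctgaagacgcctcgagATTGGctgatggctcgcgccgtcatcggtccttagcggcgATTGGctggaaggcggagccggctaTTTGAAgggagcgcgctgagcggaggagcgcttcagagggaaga

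Chromatin genes moved both ways. *H2afz*, the histone variant H2A.Z, ranged from 131 to 172 in WT (median 154) and 36.3 to 104 in *muMt*-/- (median 83.9) and fell (log2FC -0.95, SE 0.19, adjusted p = 0.00506). No library overlapped the other group. *Cbx3*, heterochromatin protein HP1γ, ranged from 31.4 to 58 in WT (median 50.3) and 17.1 to 39.2 in *muMt*-/- (median 24.5) and fell too (log2FC -0.82, SE 0.19, adjusted p = 0.0123). Of its *muMt*-/- libraries, 4 lay below the WT range. *Chd7*, a chromatin remodeller, ranged from 22.2 to 36.9 in WT (median 30.005) and 34.2 to 75.3 in *muMt*-/- (median 54.1) and rose (log2FC 0.83, SE 0.20, adjusted p = 0.0182), the call lost without WT replicate 1 or *muMt*-/- replicate 4 (adjusted p up to 0.0742, without *muMt*-/- replicate 4). *Kdm6b*, a demethylase of histone H3 lysine 27 that is induced in activated macrophages, ranged from 12.8 to 14.5 in WT (median 13.1) and 15.1 to 47.4 in *muMt*-/- (median 21.2) and rose (log2FC 0.83, SE 0.23, adjusted p = 0.0414), with separate groups and a call kept in 3 of 12 fits (adjusted p up to 0.229, without *muMt*-/- replicate 4). In the list of nucleosome and chromatin proteins, 2 rose and 2 fell of 50 tested (median -0.11, unadjusted 12 and 8, DESeq2 2 and 2).

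Of 5 nuclear long noncoding RNAs tested, 2 rose. *Malat1* (chr19:5795690-5802672), a noncoding RNA kept in nuclear speckles, ranged from 566 to 680.3 in WT (median 665) and 816 to 2028 in *muMt*-/- (median 1050.2) and rose (log2FC 0.82, SE 0.16, adjusted p = 0.00385). *Neat1* (chr19:5824708-5845480), the scaffold of paraspeckles, ranged from 18.2 to 32.4 in WT (median 25.5) and 46.1 to 82.3 in *muMt*-/- (median 56.4) and rose (log2FC 1.22, SE 0.18, adjusted p = 8.60e-05), also with depth as a covariate (log2FC 1.11, adjusted p = 0.0149). For both RNAs the groups did not overlap, and *muMt*-/- replicate 4 stood far above the rest in *Malat1*. Among the nuclear long noncoding RNAs, 2 rose and 0 fell of 5 tested (median 0.66, unadjusted 3 and 0, DESeq2 2 and 0), and their sum, most of it *Malat1*, ranged from 628 to 752 in WT (median 736) and 927 to 2178 in *muMt*-/- mice (median 1146). The part of nuclear RNA in the other calls was not tested. *Snora81* and *Snora75*, small nucleolar RNAs inside introns, rose, and their hosts were not called. *Snora81* ranged from 134 to 178 in WT (median 143) and 220.1 to 343 in *muMt*-/- (median 254) (log2FC 0.80, SE 0.14, adjusted p = 0.00191), whereas its host *Eif4a2* had a log2FC of -0.02. *Snora75* ranged from 2.91 to 6.91 in WT (median 4.21) and 9.32 to 22.6 in *muMt*-/- (median 15.5) (log2FC 1.64, SE 0.34, adjusted p = 0.00526), and its host *Ncl* was at 0.04. Both calls held in all 12 fits. The RNA lies within the host on the same strand in each case, so that molecules of the pairs cannot be told apart for certain. Among host transcripts of small nucleolar RNAs, 0 rose and 1 fell of 16 tested (median -0.39, unadjusted 0 and 2, DESeq2 0 and 1), the fall being *Gm15421*, which ranged from 17.4 to 24.7 in WT (median 21.6) and 4.18 to 17 in *muMt*-/- (median 11.1) (log2FC -0.94, SE 0.23, adjusted p = 0.0227) and whose call was lost without WT replicate 1, WT replicate 6 or *muMt*-/- replicate 4 (adjusted p up to 0.0866, without *muMt*-/- replicate 4).

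Several genes of very large proteins rose. In the list of large signalling and scaffold proteins, 5 rose and 0 fell of 50 tested (median 0.42, unadjusted 16 and 0, DESeq2 5 and 0), with 41 above 0 and all 6 *muMt*-/- sums above the WT sums. *Lyst*, a regulator of lysosome size that is mutated in the beige mouse, ranged from 1.45 to 3.63 in WT (median 1.79) and 5.48 to 20.9 in *muMt*-/- (median 6.71) (log2FC 1.96, SE 0.43, adjusted p = 0.00828), with separate groups and a call lost without *muMt*-/- replicate 4 (adjusted p = 0.0706). *Macf1*, which links microtubules to actin, ranged from 29.2 to 42.2 in WT (median 36.2) and 49.8 to 82.3 in *muMt*-/- (median 61.2) (log2FC 0.78, SE 0.18, adjusted p = 0.0173). *Usp34*, a deubiquitinase, ranged from 12 to 21.1 in WT (median 18.4) and 24.9 to 35.8 in *muMt*-/- (median 31.2) (log2FC 0.78, SE 0.19, adjusted p = 0.0207). The groups of both were separate; the call of *Macf1* was lost without WT replicate 1 or *muMt*-/- replicate 4 (adjusted p up to 0.0666, without *muMt*-/- replicate 4), and that of *Usp34* was lost without WT replicate 1, WT replicate 2 or *muMt*-/- replicate 4 (adjusted p up to 0.0529, without WT replicate 2). *Ahnak*, a giant scaffold below the plasma membrane, ranged from 84.4 to 93.2 in WT (median 87.6) and 111 to 232 in *muMt*-/- (median 129.8) (log2FC 0.66, SE 0.17, adjusted p = 0.0261), with separate groups and a call lost without WT replicate 1, WT replicate 6 or *muMt*-/- replicate 4 (adjusted p up to 0.132, without *muMt*-/- replicate 4). *Nbeal1* also rose (log2FC 1.34, SE 0.34, adjusted p = 0.0291), the call kept in 6 of 12 fits (adjusted p up to 0.143, without *muMt*-/- replicate 4). Over 95 of the 97 genes that rose, those with a length, the longest annotated transcript had a median length of 4900.0 bases, over the 97 that fell 1410.0, over the falls outside ribosomal proteins and OXPHOS 1847, and over 9344 genes tested 3426. Length moves with the direction of the calls, and its part was not tested.

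Lists of RNA and protein production outside the cytosolic ribosome, and that of the proteasome, had medians below -0.05. Among core spliceosome genes, 0 rose and 1 fell of 62 tested (median -0.28, unadjusted 1 and 16, DESeq2 0 and 1), and all 6 sums of *muMt*-/- mice lay below those of WT mice. The fall was *Phf5a*, a small subunit of the SF3B complex, which ranged from 5.81 to 15 in WT (median 9.29) and 0 to 6.45 in *muMt*-/- (median 3.13) (log2FC -1.47, SE 0.39, adjusted p = 0.0343), the call kept in 3 of 12 fits (adjusted p up to 0.0994, without WT replicate 3). Of translation initiation and elongation factors, 0 rose and 2 fell of 52 tested (median -0.26, unadjusted 0 and 10, DESeq2 0 and 2). *Eif6*, which keeps the large ribosomal subunit free, ranged from 17.5 to 28.4 in WT (median 25.4) and 5.58 to 18.7 in *muMt*-/- (median 13) (log2FC -0.93, SE 0.24, adjusted p = 0.0273), the call kept in 7 of 12 fits (adjusted p up to 0.0972, without *muMt*-/- replicate 4). *Eif3g*, an initiation factor subunit, ranged from 6.46 to 19.6 in WT (median 18.5) and 2.79 to 14 in *muMt*-/- (median 7.28) (log2FC -1.12, SE 0.29, adjusted p = 0.0291), the call kept in 5 of 12 fits (adjusted p up to 0.101, without *muMt*-/- replicate 4). Among proteasome genes, 0 rose and 2 fell of 48 tested (median -0.21, unadjusted 0 and 8, DESeq2 0 and 2), again with all 6 sums below those of WT mice. *Psmb10*, a catalytic subunit of the immunoproteasome, ranged from 54.5 to 74.8 in WT (median 70.5) and 29.3 to 48.9 in *muMt*-/- (median 42.5) (log2FC -0.76, SE 0.20, adjusted p = 0.0300, with the covariate -0.43 and 0.600). *Psmb3*, a structural subunit, ranged from 34.1 to 48.7 in WT (median 45.8) and 17 to 35.7 in *muMt*-/- (median 27.4) (log2FC -0.66, SE 0.18, adjusted p = 0.0442). The groups of *Psmb10* were separate, and both calls were kept in 4 of the 12 fits without 1 library, with an adjusted p of up to 0.119 for *Psmb3* without *muMt*-/- replicate 4.

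Mitochondrial lists also had medians below that of all genes. Among mitochondrial ribosomal proteins, edgeR called 0 (77 tested, unadjusted 0 and 12, DESeq2 0 and 0, median -0.31). For mitochondrial import and protein quality, 0 rose and 1 fell of 44 tested (median -0.32, unadjusted 0 and 8, DESeq2 0 and 1). The fall was *Mpv17l*, a membrane protein of mitochondria and peroxisomes, which ranged from 3.69 to 12.8 in WT (median 8.64) and 0.922 to 6.97 in *muMt*-/- (median 3.04) (log2FC -1.53, SE 0.41, adjusted p = 0.0350), the call kept in 4 of 12 fits (adjusted p up to 0.101, without *muMt*-/- replicate 3). In the tricarboxylic acid cycle, 0 rose and 1 fell of 30 tested (median -0.18, unadjusted 1 and 6, DESeq2 1 and 1). *Fh1*, fumarate hydratase, which turns fumarate into malate, ranged from 6.91 to 16.2 in WT (median 10.5) and 2.35 to 7.47 in *muMt*-/- (median 4.67) and fell (log2FC -1.27, SE 0.34, adjusted p = 0.0363). The groups overlapped in 2 *muMt*-/- libraries, and the call was kept in 4 of 12 fits (adjusted p up to 0.101, without *muMt*-/- replicate 5). Among heat shock proteins and other chaperones, 0 rose and 1 fell of 37 tested (median -0.16, unadjusted 1 and 5, DESeq2 0 and 1). The fall was *Cct7*, a subunit of the TRiC chaperonin, which ranged from 27.6 to 44.3 in WT (median 35.2) and 11.3 to 29.9 in *muMt*-/- (median 17.9) (log2FC -0.88, SE 0.22, adjusted p = 0.0256), the call kept in 6 of 12 fits (adjusted p up to 0.0863, without *muMt*-/- replicate 4). EdgeR also called 0 of the cytosolic tRNA synthetases and partners (22 tested, unadjusted 0 and 3, DESeq2 0 and 0, median -0.24) and of the ATF4 response to amino acid shortage (23 tested, unadjusted 3 and 6, DESeq2 1 and 0, median -0.35).

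The lists of antigen presentation, lysosomes, Toll-like receptors and interleukin-1 gave 1 call. For MHC class I presentation, 0 rose and 1 fell of 25 tested (median -0.02, unadjusted 2 and 5, DESeq2 0 and 1), the fall being *Psmb10*. In the lists that follow, edgeR called 0 genes. MHC class II presentation (16 tested, unadjusted 2 and 0, DESeq2 1 and 0, median 0.17) was led by the invariant chain gene *Cd74*, which ranged from 483 to 1062 in WT (median 697) and 676 to 1201 in *muMt*-/- (median 1091) (log2FC 0.44, SE 0.19, adjusted p = 0.262). The lysosome list (62 tested, unadjusted 3 and 7, DESeq2 2 and 0, median -0.13) was led by the protease gene *Ctss* (log2FC -0.17, adjusted p = 0.752). Toll-like receptors and co-receptors (31 tested, unadjusted 1 and 2, DESeq2 0 and 0, median 0.12) were led by the chaperone *Hsp90b1* (log2FC 0.23, adjusted p = 0.500). The interleukin-1 family and inflammasome (23 tested, unadjusted 5 and 1, DESeq2 1 and 0, median 0.40) had a high median without a call. *Il1b*, the inflammatory cytokine that led this list, ranged from 121 to 250.5 in WT (median 159.9) and 173 to 334 in *muMt*-/- (median 290.4) and missed the threshold (log2FC 0.62, SE 0.19, adjusted p = 0.0797). It was called in 2 of the 12 fits without 1 library and by DESeq2's Wald test (adjusted p = 0.0458). Iron and haem genes (18 tested, unadjusted 3 and 0, DESeq2 0 and 0, median 0.00) were led by the ferritin chain *Fth1* (log2FC 0.43, adjusted p = 0.181), genes of cholesterol synthesis and uptake (34 tested, unadjusted 1 and 3, DESeq2 1 and 0, median -0.10) by the lysosomal sterol carrier *Npc2* (log2FC -0.25, adjusted p = 0.660), and the actin cytoskeleton (52 tested, unadjusted 1 and 7, DESeq2 0 and 2, median -0.10) by *Actb* (log2FC 0.03, adjusted p = 0.957). The medians of iron, NADPH oxidase, prostaglandin, macrophage identity, MHC class I and II, CC and CXC chemokine, interferon-stimulated, interferon-inducible GTPase, matrix, integrin and TGF-β genes changed sign in fits without 1 library, and those of the lysosome and Fcγ lists with depth as a covariate. A p that misses the threshold does not show that levels were equal.

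**Figure D3:**
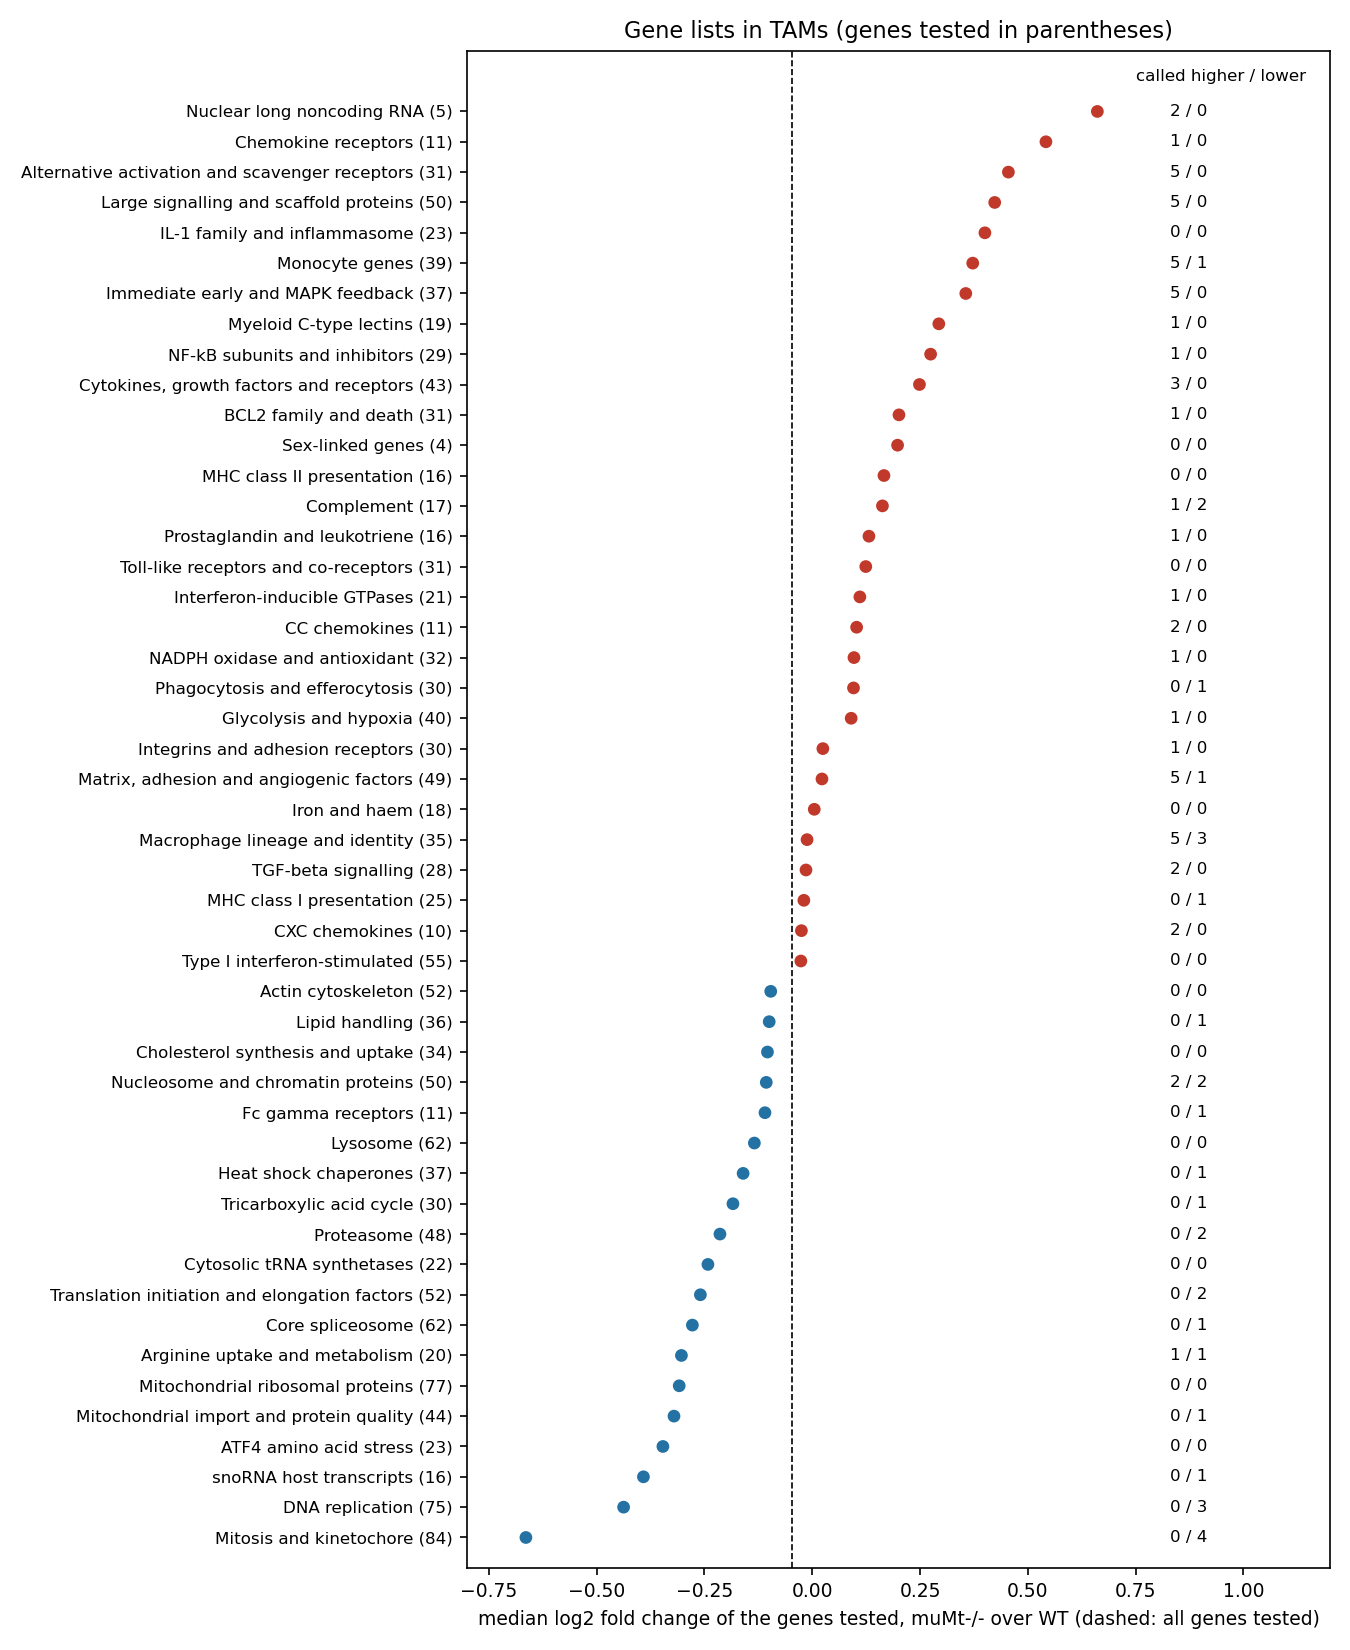
Median log2 fold change of *muMt*-/- over WT mice for each of 48 gene lists (points), with the genes tested in parentheses, the numbers called higher and lower at the right and the median of all genes tested (-0.05) as a dashed line. Nuclear noncoding RNA, chemokine receptors and alternative activation stood highest, and mitosis and DNA replication lowest.

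Several of the strongest differences stood outside the lists. *Mir6240* (chr5:114851948-114852064), annotated as a microRNA, resembles a part of 28S ribosomal RNA, and its molecules may be ribosomal RNA, which was not tested. It ranged from 11.6 to 38.8 in WT (median 18.6) and 90.1 to 202 in *muMt*-/- (median 137) and had the smallest p of all genes (log2FC 2.77, SE 0.32, adjusted p = 1.05e-06). No *muMt*-/- library reached down to the WT range, and the call held with depth as a covariate (log2FC 2.03, adjusted p = 0.000533). *Tiparp*, a mono-ADP-ribosyltransferase that restrains the aryl hydrocarbon receptor, ranged from 11.1 to 21.3 in WT (median 13.7) and 15.5 to 58.6 in *muMt*-/- (median 35.8) and rose (log2FC 1.26, SE 0.23, adjusted p = 0.00211), with 1 *muMt*-/- library inside the WT range. *Hivep3*, a zinc finger protein, ranged from 3.14 to 5.97 in WT (median 5.53) and 7.37 to 29.3 in *muMt*-/- (median 11.3) (log2FC 1.38, SE 0.33, adjusted p = 0.0182), the call lost without *muMt*-/- replicate 4 (adjusted p = 0.121). *Suco* ranged from 4.61 to 12.6 in WT (median 6.06) and 6.45 to 34.9 in *muMt*-/- (median 19.3) (log2FC 1.40, SE 0.31, adjusted p = 0.00828), the call lost without *muMt*-/- replicate 4 (adjusted p = 0.0587). *Mcemp1*, a membrane protein of myeloid cells, ranged from 1.85 to 6.28 in WT (median 3.28) and 5.65 to 14.9 in *muMt*-/- (median 8.58) (log2FC 1.42, SE 0.36, adjusted p = 0.0267), the call kept in 6 of 12 fits (adjusted p up to 0.0852, without *muMt*-/- replicate 3). The groups overlapped in *Suco* and *Mcemp1* and were separate in *Hivep3*. The noncoding transcripts *E230029C05Rik* and *6330407A03Rik* rose by 1.66 (adjusted p = 0.00553) and 1.31 (adjusted p = 0.0334) on the log2 scale. The call of *E230029C05Rik* held in all 12 fits, and that of *6330407A03Rik* was kept in 4 of 12 fits (adjusted p up to 0.171, without *muMt*-/- replicate 4), with a log2FC of 0.58 and an adjusted p of 0.696 with the covariate. *Anpep*, an aminopeptidase of myeloid cells, was chosen after its values were seen because it was still called with depth as a covariate. It ranged from 9.44 to 31.4 in WT (median 16.4) and 36 to 48.2 in *muMt*-/- (median 39.4) (log2FC 1.11, SE 0.22, adjusted p = 0.00468). With the covariate its log2FC was 1.33 (adjusted p = 0.0291).

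Among the falls, *Ptpa* (chr2:30416050-30447807), an activator of protein phosphatase 2A, ranged from 15 to 21.8 in WT (median 19.9) and 2.49 to 11.3 in *muMt*-/- (median 7.93) (log2FC -1.45, SE 0.26, adjusted p = 0.00211). *Rangap1*, which activates the GTPase of the Ran cycle for nuclear transport, ranged from 15 to 31.2 in WT (median 20.6) and 6.97 to 15.5 in *muMt*-/- (median 7.88) (log2FC -1.31, SE 0.25, adjusted p = 0.00349). *Dohh*, which completes the hypusine of translation factor eIF5A, ranged from 7.27 to 17.4 in WT (median 12) and 1.88 to 6.27 in *muMt*-/- (median 4.79) (log2FC -1.38, SE 0.31, adjusted p = 0.0106). In *Ptpa* and *Dohh* the groups were separate, in *Rangap1* 1 *muMt*-/- library reached the WT range, and all 3 genes were called in the 12 fits. *Mir703*, annotated as a microRNA but sharing sequence with *Eef1a1*, whose molecules it may hold, ranged from 21.3 to 41.8 in WT (median 29.9) and 2.79 to 16.6 in *muMt*-/- (median 12.7) (log2FC -1.41, SE 0.30, adjusted p = 0.00742, with the covariate -0.89 and 0.381). *Cuta* ranged from 8.72 to 14.5 in WT (median 11.5) and 0 to 7.47 in *muMt*-/- (median 3.90) (log2FC -1.34, SE 0.36, adjusted p = 0.0373), the call kept in 4 of 12 fits (adjusted p up to 0.111, without *muMt*-/- replicate 4). Both genes had separate groups. Of the ribosomal protein genes, *Rpl28* was among the 10 genes with the smallest p, at 145 to 217 in WT mice and 39 to 103 in *muMt*-/- mice (log2FC -1.14, SE 0.20, adjusted p = 0.00191). *BC018473*, chosen after its values were seen because it was still called with the covariate, ranged from 82.1 to 123 in WT (median 114) and 31.3 to 84.8 in *muMt*-/- (median 67) and fell (log2FC -0.93, SE 0.20, adjusted p = 0.00742). With the covariate its log2FC was -1.67 (adjusted p = 1.77e-05).

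The lowest counts behind a call, looked up after their values were seen, were those of *Haao*, an enzyme of tryptophan breakdown, with 21 molecules in WT and 1 in *muMt*-/- libraries (ratio 0.0741 after scaling, 95% counting interval 0.00179 to 0.461), and of *Tyw5*, an enzyme of tRNA modification, with 18 in WT and 0 in *muMt*-/- libraries, at least 3.86-fold lower when 3 molecules over the group are taken as the floor. These bounds cover counting error alone. Genes near the mutated locus can come from the strain in which the mutation was made. Within 10 Mb of *Ighm* on chromosome 12, 2 of 58 genes tested were called, beside 2.05% of all genes, and the median log2FC there was -0.13. *Glrx5*, a mitochondrial protein of iron-sulfur cluster assembly, ranged from 6.46 to 11 in WT (median 8.36) and 1.88 to 4.98 in *muMt*-/- (median 2.95) and fell (log2FC -1.33, SE 0.35, adjusted p = 0.0325), the call kept in 5 of 12 fits (adjusted p up to 0.0866, without *muMt*-/- replicate 4). *Siva1*, a protein that promotes cell death, ranged from 10.3 to 17.5 in WT (median 12.4) and 1.39 to 10.1 in *muMt*-/- (median 7.26) and fell (log2FC -1.12, SE 0.31, adjusted p = 0.0426), the call kept in 2 of 12 fits (adjusted p up to 0.137, without *muMt*-/- replicate 4). The groups were separate in both genes. Linked alleles and loss of B cells cannot be told apart there.

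Overlapping genes limit some of these values. The use of strand in the counting is not given in the sources used here. *Ccna2*, *Kif20a*, *Pclaf*, *Cct7*, *Rangap1*, *Rpl28*, *Dusp1*, *Mmp19*, *Usp34*, *Zeb2*, *Tgm2*, *Csf1r*, *Tyw5* and *E230029C05Rik* each overlap a tested gene on the other strand. Molecules from the shared stretch cannot be told apart. Except for *Tyw5* and *E230029C05Rik*, the partners had lower means over the 18 TAM libraries. They ranged from *Hmgxb3* at 2.94 beside *Csf1r* at 142 to *Exosc9* at 5.55 beside *Ccna2* at 11.2. *Gm15421* lies within *Orc5* on the same strand, which was at a mean of 1.09 normalized molecules with a log2FC of -1.23, and *Gvin1* overlaps *Gm18853* in the same way, so that their molecules cannot be told apart for certain. *Maip1*, the partner of *Tyw5*, was more abundant than *Tyw5*. *Eed*, which overlaps *E230029C05Rik*, was more abundant too (mean 11.7 against 6.22 normalized molecules over the 18 TAM libraries) and had a log2FC of 0.14.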

How the data were processed

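For each TAM library the authors deposited an unnormalized count of barcoded molecules on every gene, after mapping to mm10 (STAR 2.5.4b, refFlat gene models). The table holds 24781 genes, 26 of them with names that look like dates, kept as they stand. The 12 libraries compared were taken by their labels, 6 per group and 1 per mouse, with 100254 to 304100 molecules each, so low genes are known with counting error. Normalized molecules are counts divided by DESeq2's size factors over the 18 TAM libraries, which include 6 of *muMt*-/- mice with a GABA pellet. Genes with a mean above 1, the filter of the study, (9469) were tested with edgeR 4.0.16 (quasi-likelihood F-test, TMM, 1 coefficient per group, 18 libraries in 1 fit, Benjamini-Hochberg adjustment, threshold 0.05). Depth was compared with a two-sided exact permutation test.

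Lists were written from general knowledge, and members and lists were chosen with earlier results of these data known. They are the 48 lists drawn in the plot of list medians and the 10 lists of cell type markers. Named genes are the 15 largest rises and 15 largest falls among called genes with a mean of at least 5, the 10 smallest p, of each list the called members (at most 6) and the most abundant, the most abundant marker of each cell type, the sort markers with *Csf1r*, and genes called within 10 Mb of *Ighm*. Most others are named as chosen after their values were seen, and *Tnf* also lies outside these rules.

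Alternatives were DESeq2 1.42.0 (its size factors within edgeR, and its Wald test with adjusted and unadjusted p), filterByExpr, no filter, a mean above 5, the 12 libraries alone, a robust fit, a block for replicate numbers, the log2 depth of the library as a covariate, counts thinned to equal depth and leaving out each library. DESeq2 gave no adjusted p for 4224 genes, which are not called there. Leaving out libraries with stromal markers, or the library with most molecules of *Ccl17*, was chosen after seeing the data. Software was R 4.3.3 and Python 3.11.15 with scipy 1.17.1, pandas 2.3.3, matplotlib 3.10.9 and numpy 2.4.6. Coordinates, transcript lengths and promoters are from RefSeq for GRCm38.p6, with coordinates for 9436 of the 9469 genes. *Ighm* and *Ighd* were not analysed here. The lists and named genes leave out 2 genes that are not reported here.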

Additional observations from a re-analysis of the deposited data

Results flagged for a closer look

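Among 280 groups of 6 values, of the named genes and marker sums, 28 values lay far from the nearest of the others of their group, and chance gives about 1 in 20 groups. *muMt*-/- replicate 4 accounted for 11 of them, with normalized molecules of 232 for *Ahnak*, 34.9 for *Ccl17*, 477 for *Ccr2*, 459 for *Clec7a*, 442 for *Eef1a1*, 29.3 for *Hivep3*, 47.4 for *Kdm6b*, 20.9 for *Lyst*, 2028 for *Malat1*, 78.1 for *Sdc4* and 255 for *Zeb2*. WT replicate 5 stood apart with 5.02 for *Ccl24*, 159 for *Clec7a*, 143 for *Mcl1*, 17.6 for *Mmp19*, 12.6 for *Suco* and 21.3 for *Tiparp*. In WT replicate 1 they were 90.4 for the endothelial marker sum, 9.38 for *6330407A03Rik* and 17.9 for *Pecam1*. WT replicate 6 stood apart with 1139 for the fibroblast marker sum and 307 for *Col3a1*. In WT replicate 2 they were 0.923 for *Ccl17* and 6.46 for *Eif3g*. WT replicate 3 stood apart with 18.2 for *Asf1b*. In WT replicate 4 they were 5.81 for *Mad2l1*. *muMt*-/- replicate 1 stood apart with 531 for *Apoe*. In *muMt*-/- replicate 5 they were 96.3 for *Top2a*. In *Eef1a1* the value of *muMt*-/- replicate 4, in *6330407A03Rik* that of WT replicate 1, in *Eif3g* that of WT replicate 2 and in *Mad2l1* that of WT replicate 4 was the lowest of its group, and the other values were the highest. Why *muMt*-/- replicate 4 stood apart so often was not tested.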

How the results depend on the processing

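All 194 called genes kept their direction in each fit in which they were tested. DESeq2's size factors gave 206 genes, 111 higher and 95 lower, DESeq2's Wald test 253 genes, 134 higher and 119 lower, a filter at a mean above 5 called 258 genes, 140 higher and 118 lower and a robust fit 230 genes, 111 higher and 119 lower. The numbers moved by over 1.5 times, in all or in 1 direction, with filterByExpr (295 genes, 160 higher and 135 lower), without a filter (343 genes, 144 higher and 199 lower), with the 12 libraries alone (324 genes, 161 higher and 163 lower) and at an unadjusted p in DESeq2's Wald test (1111 genes, 574 higher and 537 lower). They dropped with the log2 depth of the library as a covariate (11 genes, 8 higher and 3 lower), which takes up what genotype and depth share, and with counts thinned to equal depth (116 genes, 66 higher and 50 lower), which also removes molecules. Without the 2 libraries highest in fibroblast markers there were 116 genes, 57 higher and 59 lower, and without the library highest in endothelial markers as well 44 genes, 22 higher and 22 lower, with fewer libraries in the fit and a choice made after seeing the data. Leaving out each library in turn gave 69 to 230 genes, 38 to 111 higher and 31 to 119 lower, and a difference in molecules of -97939 to -67268. The smallest number came without *muMt*-/- replicate 4 and the largest without *muMt*-/- replicate 5, and the cause was not tested.

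The replicate block gave 201 genes, 104 higher and 97 lower, and it ended the call of 6 of the 84 called named genes. Same-numbered libraries showed no sign of pairing in expression. The correlation of their deviations from the group means lay between -0.0970 and 0.0560, and only WT replicate 4 correlated best with the *muMt*-/- library of its own number. The labels do not say what the numbers stand for, and shared handling of libraries was not tested. For the 129 named genes, 1393 results of other settings kept their side of the threshold, 226 no longer passed it and 33 passed it anew, and in the fits without 1 library it was 1244, 301 and 3. Medians of the 48 lists moved by less than 1 SD in 548 results and by more in 28, and in the fits without 1 library in 570 and 6. In libraries of this depth, genes near the filter are known from a few molecules per library, so that a difference may not be detectable there.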
